A study of Mus musculus with 38 samples.

Results

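The SOXF genes *Sox7*, *Sox17* and *Sox18* are followed here through every RNA and chromatin profile of the series. They were taken by name, 3 of the 35976 genes in the bulk RNA-seq time course table, of the 37108 genes in the table of factor sets and of the 20695 genes in the single-cell table. All 3 were found in each table. SOXF proteins are transcription factors that bind DNA through an HMG box. *Sox17* is a regulator of endoderm, including the primitive endoderm (PrE) that lines the blastocyst cavity and forms the yolk sac. *Sox7* is used both in PrE and in vessels and early blood, while *Sox18* is best known from blood and lymph vessels. In endothelium the 3 genes overlap in function, and their known targets include *Cdh5*, the adhesion protein of endothelial junctions, and *Cldn5*, a tight junction protein.

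The cells came from mouse embryonic fibroblasts (MEFs; E13.5 for the bulk RNA libraries) that received reprogramming factors by virus and grew in iCD3 medium. JGES stands for *Jdp2*, *Glis1*, *Esrrb* and *Sall4*. JGE lacks *Sall4*, JGEO replaces it by *Oct4*, and JGESO carries all 5 factors. BMP4+ cultures received 10 ng/ml BMP4 and BMP4- cultures none. Bulk RNA-seq covered JGES at day 0 without BMP4 and at days 1, 3, 5 and 7 with and without it, and JGE, JGEO and JGESO at day 7 with and without it. MEFs given 1 factor, full-length SALL4 (SALL4-WT) or SALL4-delN12, a form that lacks the N-terminal 12 residues, were profiled without BMP4 by RNA-seq and ATAC-seq at days 1, 5, 9 and 11, with MEFs as a further ATAC-seq sample. CUT&Tag at day 6 mapped SALL4 and the acetylated histone H3K27ac in cultures of both forms. Single-cell RNA-seq was run on JGES cells at day 7 with and without BMP4. The series holds 38 samples, 23 of bulk RNA, 2 of single cells, 9 of ATAC-seq and 4 of CUT&Tag, with 1 sample for each condition. Each comparison is therefore between single libraries and was not tested. The exception is the bulk RNA-seq fits that take days or factor sets as replicates of a treatment.

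The single-cell cells fell into 8 groups by the deposited annotation, whose label ParE was read as the PrE cell-like cells (PrECLCs). The BMP4+ sample held 2372 PrECLCs, 1453 endothelial, 385 placenta-like and 7125 intermediate cells, with median depths of 19594 to 28906 UMIs (unique transcript counts) per cell. The BMP4- sample held 142 PrECLCs, 507 endothelial, 6211 intermediate and 1825 pluripotent cells, at 11562 to 15444 UMIs. Of 6 PrE markers, at least 3 were detected in 97.2% of BMP4+ and 80.3% of BMP4- PrECLCs. Of 6 endothelial markers, at least 3 were detected in 70.7% of BMP4+ but 32.9% of BMP4- endothelial cells, so fewer cells annotated as endothelial in the BMP4- sample carried these markers. Red blood cell genes summed to 494 CPM (UMIs scaled to library size) in BMP4- endothelial cells and 67.0 CPM in BMP4+ endothelial cells. *Sall4*, counted whether delivered or endogenous, was at 650 FPKM (fragments scaled by gene length and library size) in the JGES day 0 library already, 194 to 712 FPKM in the later JGES libraries and 290 to 971 FPKM with SALL4 alone, against 2.09 and 6.23 FPKM in JGE and 28.9 and 30.3 FPKM in JGEO.

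In the mm10 genome (GENCODE vM21 annotation) *Sox17* (ENSMUSG00000025902) lies on the minus strand at chr1:4490931-4497354, has 8 annotated transcript starts and overlaps *Gm37587*, a processed transcript on the opposite strand. Whether reads were assigned by strand is not given in the sources used here, so reads of the 2 could not be told apart. *Sox7* (ENSMUSG00000063060) lies on the plus strand at chr14:63943673-63950732 and *Sox18* (ENSMUSG00000046470) on the minus strand at chr2:181669836-181671640, each with 1 transcript start and no overlapping gene. The sequences of 6 stretches carry the chromatin results given after the RNA results and are printed as 300-base windows of the reference genome, plus strand, 5′ to 3′, centred on the deposited peak of highest score. Each is named by the distance from the start site to the centre of the whole site, which is the span of its overlapping peaks and can be centred elsewhere than the window, negative upstream. Capitals mark a SOX motif (7 letters: 2 that are A or T, then CAA, then A or T, then G) or a GATA motif (GATAA after an A or T), searched on both strands, and the motifs do not overlap. The first 3 are intergenic sites at *Sox17* with a peak in the SALL4-delN12 library of day 11 and in no other library. The next is the distal *Sox17* site that was open in all 9 ATAC-seq libraries. The last 2 are, of 2 sites at *Sox7* with SALL4 and H3K27ac peaks and none in MEFs, the one open in more ATAC-seq libraries, and the site with the highest score at *Sox18*.
*Sox17* at -41144 bases (chr1:4538349-4538648): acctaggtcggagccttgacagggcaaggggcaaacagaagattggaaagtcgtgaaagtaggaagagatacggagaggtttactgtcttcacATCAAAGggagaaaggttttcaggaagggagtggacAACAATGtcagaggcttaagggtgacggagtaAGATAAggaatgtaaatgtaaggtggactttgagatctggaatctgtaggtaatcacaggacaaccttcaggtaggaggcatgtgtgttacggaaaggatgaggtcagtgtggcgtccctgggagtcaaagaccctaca
*Sox17* at -40254 bases (chr1:4537459-4537758): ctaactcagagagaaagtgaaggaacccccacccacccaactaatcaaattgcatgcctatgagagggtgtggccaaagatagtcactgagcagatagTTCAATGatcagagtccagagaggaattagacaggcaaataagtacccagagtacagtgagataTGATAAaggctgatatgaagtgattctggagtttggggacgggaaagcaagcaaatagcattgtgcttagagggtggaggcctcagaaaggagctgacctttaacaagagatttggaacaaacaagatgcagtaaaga
*Sox17* at +23367 bases (chr1:4473838-4474137): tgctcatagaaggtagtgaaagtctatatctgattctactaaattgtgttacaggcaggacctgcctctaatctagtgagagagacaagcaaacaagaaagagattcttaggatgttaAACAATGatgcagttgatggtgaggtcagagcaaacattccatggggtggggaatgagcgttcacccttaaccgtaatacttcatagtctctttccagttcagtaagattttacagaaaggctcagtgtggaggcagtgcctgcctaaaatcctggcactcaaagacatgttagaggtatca
*Sox17* at -74350 bases (chr1:4571426-4571725): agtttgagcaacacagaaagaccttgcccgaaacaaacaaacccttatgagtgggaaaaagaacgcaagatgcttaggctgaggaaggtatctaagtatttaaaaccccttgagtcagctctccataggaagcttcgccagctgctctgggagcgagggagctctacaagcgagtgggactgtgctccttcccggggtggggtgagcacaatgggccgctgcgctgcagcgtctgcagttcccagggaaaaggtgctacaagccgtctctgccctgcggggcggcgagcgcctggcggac
*Sox7* at -26066 bases (chr14:63917245-63917544): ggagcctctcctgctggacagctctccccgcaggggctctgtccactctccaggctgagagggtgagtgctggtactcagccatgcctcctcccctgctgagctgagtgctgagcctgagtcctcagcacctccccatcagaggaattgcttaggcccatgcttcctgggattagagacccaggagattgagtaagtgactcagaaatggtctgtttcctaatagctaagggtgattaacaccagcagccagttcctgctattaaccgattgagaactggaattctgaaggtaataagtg
*Sox18* at -4013 bases (chr2:181675513-181675812): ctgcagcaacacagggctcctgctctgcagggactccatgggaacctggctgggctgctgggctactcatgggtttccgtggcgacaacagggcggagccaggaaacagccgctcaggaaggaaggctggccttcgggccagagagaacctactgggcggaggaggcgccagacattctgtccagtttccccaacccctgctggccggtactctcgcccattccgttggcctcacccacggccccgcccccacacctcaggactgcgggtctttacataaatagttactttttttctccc

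The window at -41144 bases of *Sox17* held SOX motifs at positions 94 and 130 and a GATA motif at position 162, counted from its 5′ end. The window at -40254 bases held a SOX motif at position 99 and a GATA motif at position 163, and the window at +23367 bases a SOX motif at position 119. The other 3 windows held neither, and none of the 6 held the FOX motif TGTTTAC on either strand. Over all windows of the same length in the SALL4-delN12 day 11 library, 29.4% held the SOX motif, 20.7% the GATA motif and 4.78% the FOX motif. In the SALL4-WT day 11 library the shares were 26.7%, 17.1% and 4.29%, and in MEFs 28.5%, 20.5% and 3.91%. The letters were settled after the windows had been read, and a match is a description of the sequence, not a site of binding.

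In the single-cell data *Sox17* was highest in the PrECLCs, and *Sox18* and *Sox7* were highest in the endothelial cells. Levels are summed UMIs in CPM with exact 95% Poisson intervals, which cover counting error alone. With BMP4, *Sox17* was at 263 CPM (258 to 267) in PrECLCs, 37.3 CPM (35.3 to 39.4) in endothelial, 31.1 CPM (28.1 to 34.5) in placenta-like and 4.69 CPM (4.37 to 5.04) in intermediate cells. The intermediate level was 2.68 CPM without cells that held 3 markers of another type. Without BMP4 *Sox17* was at 155 CPM (138 to 174) in PrECLCs, 12.6 CPM (10.3 to 15.2) in endothelial, and 1.01 CPM in both intermediate and pluripotent cells. Cells annotated as endothelial thus came next after the PrECLCs in both samples, although the endothelial and placenta-like intervals with BMP4 nearly met. PrECLCs exceeded endothelial cells 7.04-fold (6.65 to 7.45) with BMP4 and 12.3-fold (9.83 to 15.5) without. Cells were also chosen by at least 3 of the 6 markers of a type, in place of the annotation. With BMP4 these had *Sox17* at 221 CPM for PrE and 47.9 CPM for endothelial markers, and without BMP4 at 75.4 and 24.7 CPM. PrECLCs held 86.9% of all *Sox17* UMIs of the BMP4+ sample and 57.1% of those of the BMP4- sample.

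*Sox18* ran the other way. It was at 85.1 CPM (82.1 to 88.2) in BMP4+ endothelial, 16.0 CPM (15.4 to 16.7) in intermediate, 2.90 CPM (2.49 to 3.36) in PrECLCs and 2.69 CPM (1.84 to 3.8) in placenta-like cells. The last 2 groups had overlapping intervals. Without BMP4 it was at 30.2 CPM (26.6 to 34.1) in endothelial cells, 0.493 CPM (0.354 to 0.669) in intermediate and 0.404 CPM (0.209 to 0.706) in pluripotent cells, and a single UMI was counted in the PrECLCs. Endothelial cells exceeded PrECLCs 29.4-fold (25.2 to 34.4) with BMP4. Without BMP4 the ratio was 57.0 with an interval of 10.1 to 2261, since it rests on that single UMI. The PrECLC level depended on how PrECLCs were defined: it was 6.87 CPM in cells chosen by at least 3 of the 6 PrE markers, and 1.84 CPM without cells that held 3 markers of another type. *Sox17* in BMP4+ PrECLCs was at 221 and 265 CPM under the same choices, and in the BMP4- sample the choice by PrE markers took it from 155 to 75.4 CPM.

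*Sox7* was counted in both cell types. With BMP4 it was at 78.6 CPM (75.7 to 81.6) in endothelial cells, 21.8 CPM (20.6 to 23.0) in PrECLCs, 4.63 CPM (3.49 to 6.03) in placenta-like and 2.99 CPM (2.73 to 3.27) in intermediate cells. Without BMP4 it was at 54.9 CPM in endothelial cells, 4.76 CPM (2.18 to 9.04) in PrECLCs, 0.938 CPM (0.741 to 1.17) in intermediate and 0.708 CPM (0.438 to 1.08) in pluripotent cells. The endothelial level was 3.61-fold (3.38 to 3.85) that of the PrECLCs with BMP4 and 11.5-fold (6.02 to 25.4) without. Endothelial cells held 59.4% and PrECLCs 29.0% of the *Sox7* UMIs of the BMP4+ sample, against 81.1% and 1.58% of those of the BMP4- sample, where 9 UMIs fell in PrECLCs. In each sample all 3 SOXF genes were past 2-fold between PrECLCs and endothelial cells, where 16.4% of 12514 genes were in the BMP4+ sample and 21.0% of 12721 in the BMP4- sample. The annotation came from clusters of these same cells, so the differences describe the clusters and were not tested.

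**Figure D1:**
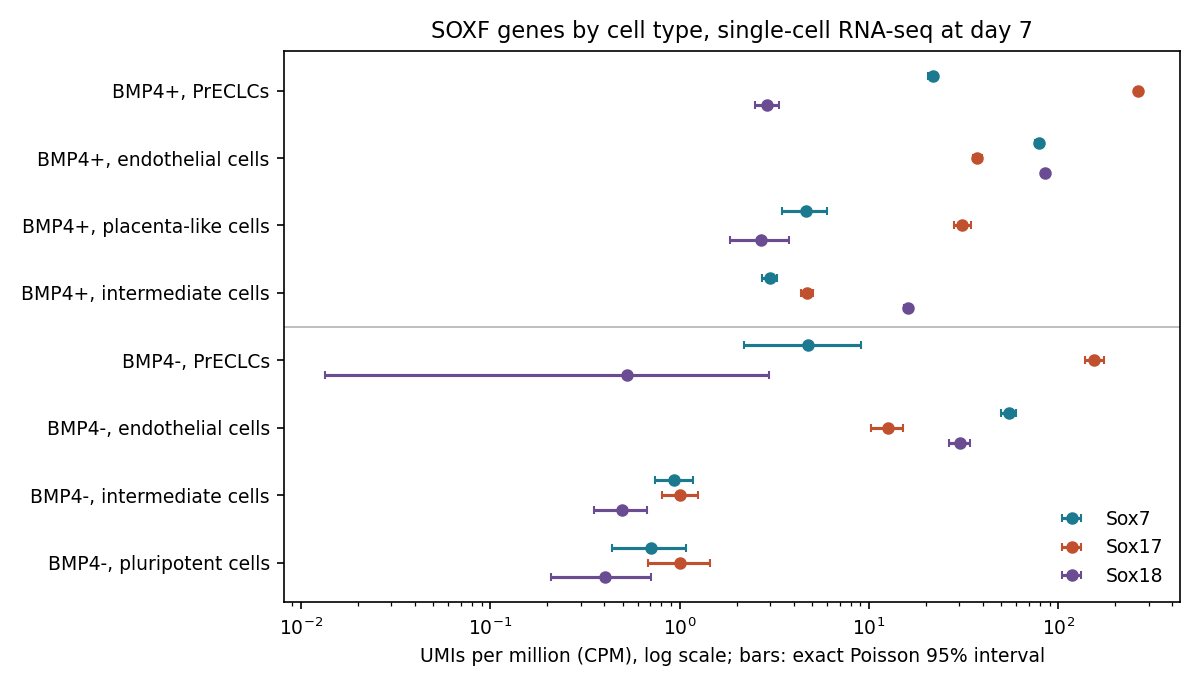
Level of each SOXF gene in the 8 cell groups (rows, with the BMP4+ sample above the line), in CPM on a log axis; points are sums over the cells of 1 sample and bars are exact 95% Poisson intervals. Sox17 is highest in the PrECLCs of both samples (263 and 155 CPM), and Sox7 and Sox18 are highest in the endothelial cells.

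The make-up of SOXF transcripts separated the cell types in the same way. UMIs are not divided by gene length, so a gene's share is read here across cell types and not against the other genes. *Sox17* made up 91.4% of the 17644 SOXF UMIs of BMP4+ PrECLCs and 18.6% of the 7022 SOXF UMIs of BMP4+ endothelial cells. *Sox18* made up 1.01% and 42.3% of them, and *Sox7* 7.59% and 39.1%. Without BMP4, *Sox17* made up 96.7% of 303 SOXF UMIs in PrECLCs and 12.9% of 822 in endothelial cells, where *Sox7* reached 56.2% and *Sox18* 30.9%.

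**Figure D2:**
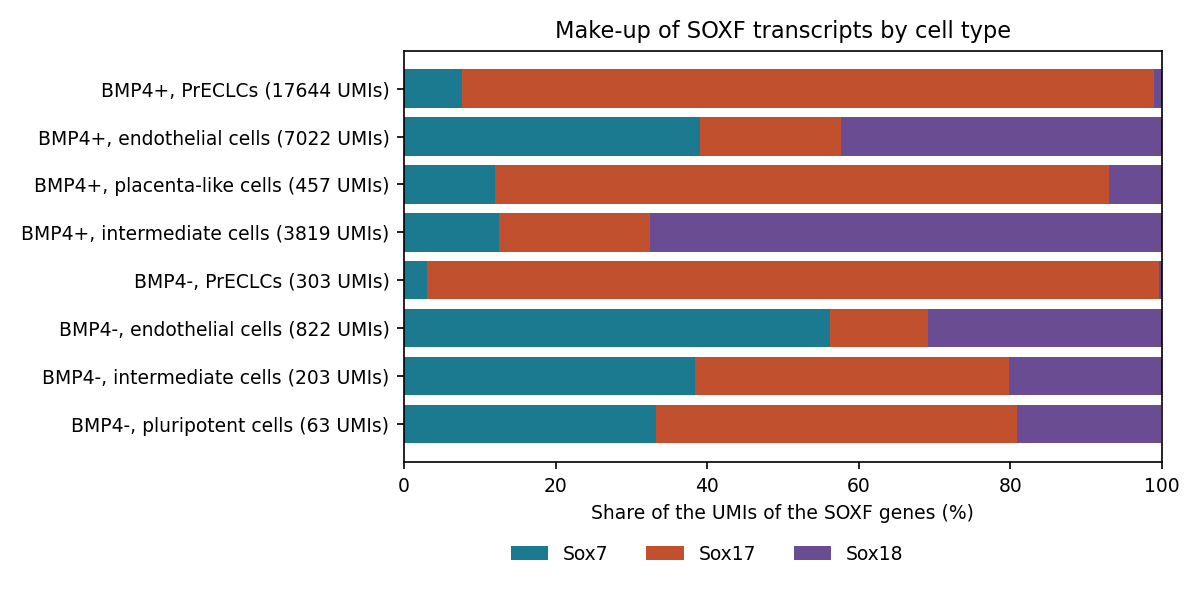
Share of the UMIs of Sox7, Sox17 and Sox18 in the sum over the 3 genes (horizontal axis, percent) for each cell group (rows, with the number of SOXF UMIs). Sox17 fills 91.4% and 96.7% of the PrECLC bars, and Sox7 and Sox18 fill most of both endothelial bars.

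Shares of cells were compared after each cell was thinned to 4000 UMIs. A *Sox17* UMI was then found in 57.5% of BMP4+ PrECLCs and 11.8% of endothelial cells, against 93.6% of PrECLCs before thinning. A *Sox18* UMI was found in 25.1% of endothelial cells, 3.66% of intermediate cells and 1.01% of PrECLCs. A *Sox7* UMI was found in 23.5% of endothelial cells and 8.14% of PrECLCs. Pluripotent cells of the BMP4- sample, the type taken here to lack SOXF genes, gave background shares for that sample of 0.384% for *Sox7*, 0.438% for *Sox17* and 0.164% for *Sox18*, at a median depth of 15444 UMIs before thinning. *Sox7* and *Sox17* shares of PrECLCs and endothelial cells in that sample lay above these. The BMP4+ sample has no pluripotent cells, and its lowest shares were 0.940% for *Sox7* and 1.18% for *Sox17*, both in intermediate cells, and 0.519% for *Sox18* in placenta-like cells.

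Single endothelial cells often held UMIs of different SOXF genes. Of the 1453 BMP4+ endothelial cells, thinned to equal depth, 197 held *Sox7* alone, 97 *Sox17* alone, 212 *Sox18* alone and 770 none. *Sox7* and *Sox18* were found together in 121 cells, where the product of the single shares gives 85.9. *Sox17* was found with *Sox7* in 43 cells against a product of 40.5, and with *Sox18* in 51 cells against 43.2. In PrECLCs *Sox7* and *Sox17* were found together in 111 cells, the same as their product, and 1243 of the 2372 cells held *Sox17* alone. Without thinning, 226 endothelial cells and 38 PrECLCs held UMIs of all 3 genes. The products are given as a description of sparse counts.

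Cells were further divided by their SOXF UMIs, a choice made after the values were seen, and the groups so formed were not tested. The 395 BMP4+ endothelial cells with 3 or more *Sox18* UMIs had the 6 endothelial markers at a summed 1245 CPM, against 301 CPM in the 679 cells without a *Sox18* UMI. At least 3 endothelial markers were found in 50.4% of the cells without *Sox18* and in 95.7% of the *Sox18*-rich cells. PrE markers summed to 301 CPM in the cells without *Sox18*, against 99.7 CPM in the *Sox18*-rich cells. The shares with at least 3 PrE markers were close, at 7.66% and 6.08%. The genes that stood highest in the *Sox18*-rich cells included *Emcn* (110 against 5.96 CPM), *Plvap*, *Gja4*, *Cd93* and *Nrarp*, the last a Notch feedback gene. *Dll4*, the Notch ligand of arteries, was at 29.1 against 2.28 CPM, *Notch1* at 92.8 against 16.2 CPM and *Cldn5* at 644 against 110 CPM. *Sox7* was at 101 against 56.5 CPM in these cells, while *Sox17* was at 37.9 against 38.6 CPM. In the 167 endothelial cells with 3 or more *Sox17* UMIs, the genes standing highest were, in order, *Lyve1*, *S100a3* and *Pitx1*. *Lyve1*, a receptor of lymphatic and yolk sac vessels, was at 34.6 against 4.15 CPM. *S100a3* was at 26.8 against 4.11 CPM and *Pitx1* at 97.3 against 27.1 CPM. At least 3 of the 6 PrE markers were found in 19.2% of these cells and in 4.37% of those without *Sox17*, and at least 3 endothelial markers in 66.5% and 67.0%. By summed level the order was different, with PrE markers at 242 against 215 CPM and endothelial markers at 864 against 555 CPM.

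The intermediate cells of the BMP4+ sample held 44.8% of its *Sox18* UMIs, close to the 51.6% in endothelial cells. These UMIs were concentrated: 593 of the 7125 cells had any, and 259 cells with 3 or more held 2161 UMIs, or 83.7% of the intermediate total. Endothelial markers summed to 44.0 CPM in those 259 cells against 9.68 CPM in cells without *Sox18*. The share of cells with 3 or more endothelial markers was 5.41% against 0.566%. Among endothelial cells with 3 or more *Sox18* UMIs that share was 95.7%. The genes standing highest in the 259 cells were, in order, *Th*, the tyrosine hydroxylase gene (105 against 4.47 CPM), *Vpreb3* (70.8 against 4.12 CPM), *2010300C02Rik* (64.2 against 3.90 CPM), *Amh*, the anti-Müllerian hormone gene (56.7 against 2.97 CPM), the salivary *Dcpp3* (9616 against 1392 CPM) and *Ccdc88b* (151 against 17.8 CPM), followed by *Dcpp2*. *Dcpp1*, *Dcpp2* and *Dcpp3* are near-identical copies whose counts can be split between them. *Cdh5* was at 11.4 CPM and *Cldn5* at 22.9 CPM in these cells, against 299 CPM and 644 CPM in the *Sox18*-rich endothelial cells. Without BMP4 the intermediate cells held 13.3% of the *Sox18* UMIs.

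*Sox17* UMIs outside the PrECLCs lay in part in cells with PrE markers. The 76 BMP4+ intermediate cells with 3 or more *Sox17* UMIs had the 6 PrE markers at 434 CPM against 57.1 CPM in cells without *Sox17*, and 64.5% of them had at least 3 of these markers. In the 34 placenta-like cells with 3 or more *Sox17* UMIs the markers were at 607 against 215 CPM, and 17 of the 34 cells had at least 3. The gene standing highest in both was *Pitx1*, at 155 against 6.76 CPM in intermediate and 309 against 21.2 CPM in placenta-like cells. The same cells were deeper, with medians of 38658 against 19262 UMIs in intermediate and 38312 against 27716 UMIs in placenta-like cells, and the part of depth or of doublets in these values was not tested.

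BMP4+ cells had more of each SOXF gene than BMP4- cells of the same type, except that the interval of *Sox18* in PrECLCs (0.970 to 218 around 5.48-fold) held 1. In PrECLCs *Sox7* was 4.58-fold (2.4 to 10.0) and *Sox17* 1.69-fold (1.51 to 1.91) higher. BMP4- PrECLCs also had pluripotent markers at a summed 865 CPM, with 3 or more in 12.7% of cells, against 23.5 CPM and 0.590% in BMP4+ PrECLCs. In endothelial cells *Sox7* was 1.43-fold (1.30 to 1.58), *Sox17* 2.96-fold (2.43 to 3.65) and *Sox18* 2.82-fold (2.48 to 3.22) higher. BMP4- endothelial cells had pluripotent markers at a summed 286 CPM, against 14.3 CPM with BMP4, and the part of these cells in the ratios was not tested. Among cells chosen by 3 markers in place of the annotation, *Sox17* was at 47.9 against 24.7 CPM with endothelial markers and at 221 against 75.4 CPM with PrE markers, with and without BMP4. The largest ratio within a type was that of *Sox18* in intermediate cells, 32.5-fold (23.9 to 45.4). The intermediate cells of the 2 samples were unlike in their markers: fibroblast markers summed to 1344 CPM with BMP4, with 3 or more in 69.9% of cells, against 215 CPM and 15.1% without, and pluripotent markers to 7.76 against 289 CPM. The part of these differences in that ratio was not tested. Over all cells, where the shares of the types differ too, *Sox7* was at 17.2 against 4.63 CPM, *Sox17* at 68.9 against 4.17 CPM and *Sox18* at 21.4 against 2.50 CPM. Bulk JGES libraries of day 7 had smaller ratios for all 3 genes. There *Sox7* was at 13.8 against 5.25 FPKM, *Sox17* at 12.6 against 3.11 FPKM and *Sox18* at 36.0 against 18.8 FPKM. The intervals cover counting within 1 sample per condition and not the spread between cultures.

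Lists of endoderm and endothelial genes separated the same 2 cell types. Of 12 endoderm genes, 11 were over 2-fold higher in BMP4+ PrECLCs and none in endothelial cells, where 8.65% and 7.76% of all genes were. *Gata4*, a PrE regulator, was at 78.3 against 1.20 CPM and *Dab2*, an endocytic adaptor of extra-embryonic endoderm, at 433 against 6.24 CPM. Of 12 endothelial genes, 11 were higher in endothelial cells, among them *Cdh5* at 179 against 9.75 CPM and *Kdr*, the main VEGF receptor, at 203 against 3.87 CPM. The other, the VEGF receptor *Flt1*, was higher in PrECLCs (247 against 60.4 CPM). Of 12 genes listed as SOXF targets, 6 were higher in endothelial cells, among them *Cldn5* at 328 against 5.50 CPM and *Robo4*, and 4 in PrECLCs, among them *Lama1*, a laminin chain of basement membranes, at 213 against 21.6 CPM, and *Foxa2*. The median log2 difference, PrECLCs minus endothelial cells, was 3.43 for the endoderm, -3.89 for the endothelial and -0.89 for the target list, beside 0.09 over all genes. Without BMP4, all 12 endoderm genes were higher in PrECLCs and 9 of 11 measured endothelial genes in endothelial cells, where 10.6% and 10.4% of all genes were.

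Bulk RNA-seq showed a different course for each gene during JGES reprogramming. *Sox18* was high from day 1. It was at 5.39 FPKM at day 0 and without BMP4 at 54.2, 42.3, 21.4 and 18.8 FPKM at days 1, 3, 5 and 7. With BMP4 it was at 42.8, 24.9, 46.2 and 36.0 FPKM on the same days. The libraries with and without BMP4 thus crossed, with the BMP4- library higher at days 1 and 3 and the BMP4+ library higher at days 5 and 7. Summed endothelial markers were at 11.9 and 9.45 FPKM at day 1, when *Sox18* was already at 54.2 and 42.8 FPKM, and at 45.5 and 53.2 FPKM at day 7, without and with BMP4. Of the day 7 sums *Pecam1* made up 18.9 and 10.9 FPKM, and in the single cells of the BMP4- sample this marker was at 27.4 CPM in pluripotent cells and 31.8 CPM in endothelial cells. In bulk RNA, fewer cells of a type and less RNA per cell cannot be told apart.

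*Sox7* was at 0 FPKM at day 0, at 0.199, 1.27, 9.45 and 5.25 FPKM at days 1, 3, 5 and 7 without BMP4, and at 0.428, 0.983, 9.31 and 13.8 FPKM with it. Both series lay side by side up to day 5 and parted at day 7. *Sox17* was low up to day 5. It was at 0 FPKM at days 0 and 1, at 0.128, 1.87 and 3.11 FPKM at days 3, 5 and 7 without BMP4, and at 0, 1.12, 1.36 and 12.6 FPKM at days 1, 3, 5 and 7 with BMP4. Its highest JGES level was therefore in the BMP4+ library of day 7, where the summed PrE markers were at 218 FPKM against 74.3 FPKM without BMP4.

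Differences between BMP4+ and BMP4- libraries are given on the log2(FPKM+1) scale, which understates the change of low genes, and a gene counts as past 2-fold if it reached 1 FPKM in either library. At day 1 none of the 3 genes was past 2-fold, where 9.48% of genes were, and at day 3 none, where 15.8% were. The day 3 differences were 0.91 for *Sox17*, -0.74 for *Sox18* and -0.19 for *Sox7*. At day 5 *Sox18* was past 2-fold (1.08), where 22.0% of genes were, while *Sox17* (-0.28) and *Sox7* (-0.02) were not. At day 7 *Sox17* (1.73) and *Sox7* (1.24) were, where 24.1% of genes were, 10.3% in the higher and 13.8% in the lower direction, and *Sox18* stood at 0.90. The median over all genes was -0.18 at day 5 and -0.14 at day 7, and scaling by the median ratio took *Sox18* at day 7 past 2-fold (1.01) and changed no other of these calls. With a pseudocount of 5, *Sox17* at day 7 was at 1.12, while *Sox7* at day 7 (0.87) and *Sox18* at day 5 (0.96) were no longer past 2-fold, and with 0.1 *Sox17* at day 3 was (2.42).

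**Figure D3:**
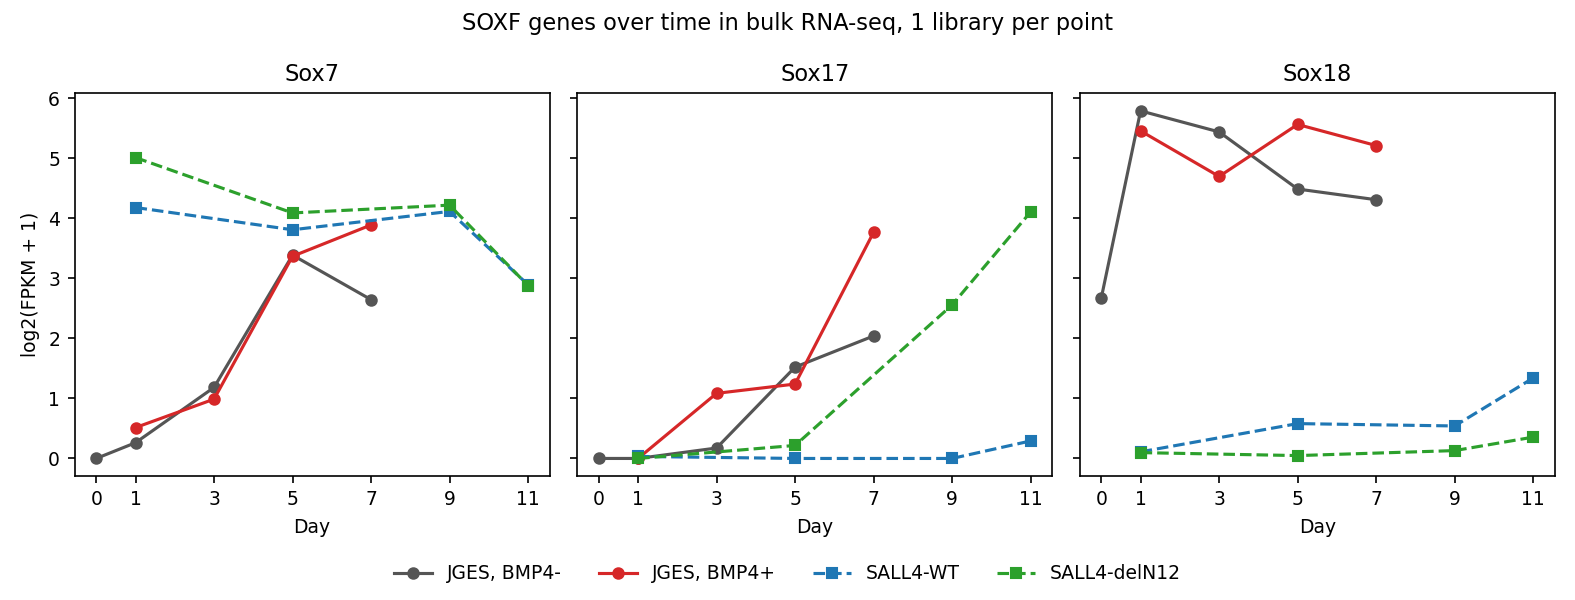
Bulk RNA-seq level of each SOXF gene (vertical axis, log2(FPKM+1)) by day for the 4 time courses, 1 library per point. Sox18 is high from day 1 in JGES libraries and at most 1.53 FPKM with SALL4 alone, Sox7 starts high with SALL4 alone, and Sox17 is highest in the last JGES and SALL4-delN12 libraries.

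The factor sets gave each gene its own pattern at day 7. *Sox18* was at 1.75 FPKM in JGE and 34.6 FPKM in JGE with BMP4, at 1.15 and 9.04 FPKM in JGEO, at 18.4 and 35.2 FPKM in the JGES columns of that table, and at 12.7 and 20.2 FPKM in JGESO. With BMP4, *Sox18* was thus at about the JGES level in JGE but not in JGEO, both of which lack delivered *Sall4*. *Sox17* was at 0.0350 and 1.58 FPKM in JGE, 0.0575 and 1.99 FPKM in JGEO, 3.03 and 12.3 FPKM in JGES, and 43.6 and 35.5 FPKM in JGESO. The 2 JGESO libraries were the highest of all for *Sox17*, and BMP4- was the higher of the pair. *Sox7* was at 0.945 and 5.64 FPKM in JGE, 0.304 and 2.24 FPKM in JGEO, 5.12 and 13.4 FPKM in JGES, and 9.55 and 10.8 FPKM in JGESO. In all 3 genes the JGE and JGEO libraries without BMP4 were the lowest of the 8. The sets also differed in macrophage markers. Their sum lay between 22.7 FPKM (JGESO, BMP4-) and 64.2 FPKM (JGE, BMP4-) outside JGES. In JGES it was 5.42 FPKM for BMP4- and 7.83 FPKM for BMP4+. Whether such cells account for part of the level differences between factor sets was not tested.

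All 3 genes were past 2-fold with BMP4 in JGE, where 9.06% of genes were (4.28% higher and 4.78% lower), and in JGEO, where 4.21% were. The differences in JGE were 3.70 for *Sox18*, 1.77 for *Sox7* and 1.32 for *Sox17*, and in JGEO 2.22, 1.31 and 1.5. With a pseudocount of 5, *Sox18* alone stayed past 2-fold, with *Sox7* at 0.84 and *Sox17* at 0.39 in JGE and at 0.45 and 0.47 in JGEO. In JGESO none of the 3 was past 2-fold, where 8.81% of genes were, with 0.63 for *Sox18*, 0.16 for *Sox7* and -0.29 for *Sox17*. The marker sums followed the SOXF genes in part. PrE markers were at 19.6 and 19.1 FPKM in JGE, 51.4 and 62.4 FPKM in JGEO and 413 and 435 FPKM in JGESO, without and with BMP4. Endothelial markers were at 21.2 and 43.6 FPKM in JGE, 10.6 and 30.7 FPKM in JGEO and 31.7 and 35.0 FPKM in JGESO. In JGE the PrE sum was thus about level while *Sox17* was higher with BMP4. In JGESO the single PrE markers were divided: *Gata4* (75.2 and 57.2 FPKM), *Foxa2*, *Lama1* and *Pth1r* were lower with BMP4, as *Sox17* was, while *Cited1* (102 and 179 FPKM) and *Dab2* (51.9 and 75.2 FPKM) were higher and set the sum. The part of cell type shares in the SOXF differences was not tested.

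**Figure D4:**
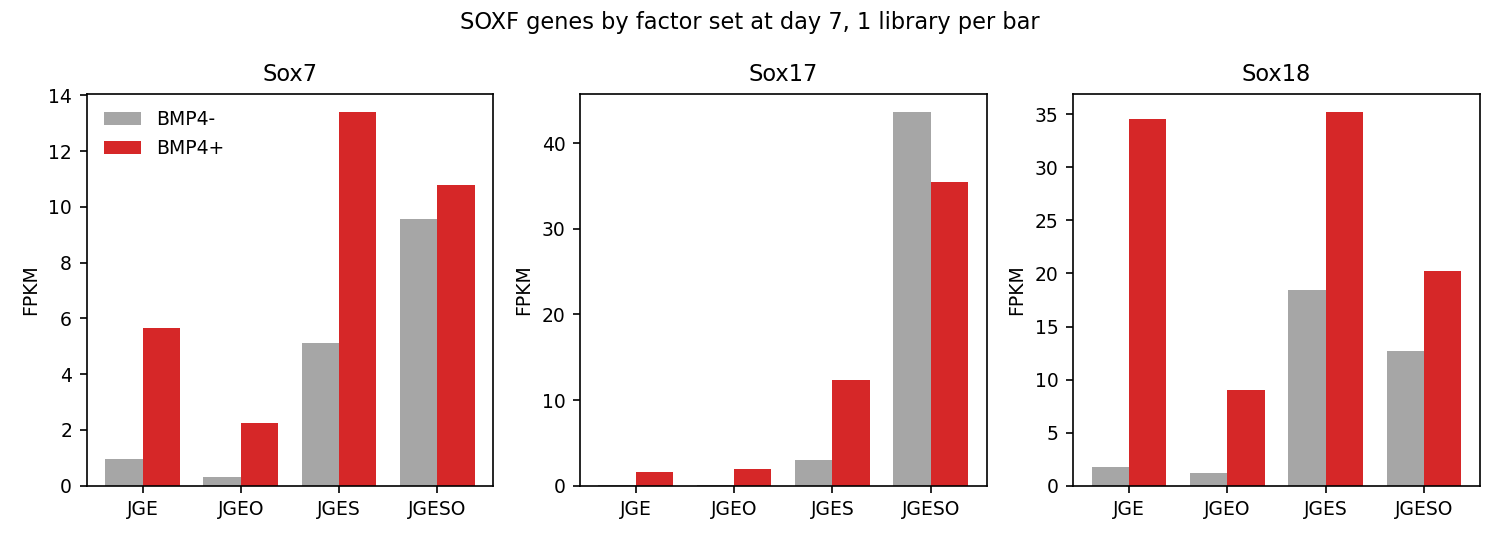
FPKM of each SOXF gene at day 7 (vertical axes, from 0) in the 4 factor sets, without BMP4 (grey) and with BMP4 (red), 1 library per bar. Sox17 stands out in JGESO (43.6 and 35.5 FPKM), and Sox18 in JGE and JGES with BMP4.

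Other endoderm, endothelial and SOXF target genes also differed between BMP4+ and BMP4- libraries. In JGES at day 7, 10.3% of all genes were past 2-fold higher and 13.8% lower. Of 12 endoderm genes 5 were higher and none lower, with *Cited1* at 74.8 against 5.52 FPKM and *Dab2* at 72.6 against 9.82 FPKM. Of 10 measured endothelial genes 4 were higher and 1 lower, with *Flt1* at 12.8 against 1.07 FPKM and *Cdh5* at 12.6 against 4.72 FPKM, and *Etv2*, an early vessel and blood regulator, at 1.92 against 6.01 FPKM. Of 12 SOXF target genes 3 were higher, among them *Dll4* (17.9 against 1.77 FPKM) and *Vcam1* (10.8 against 1.35 FPKM), and 1, *Robo4*, was lower. In JGE 4.28% of all genes were higher and 4.78% lower. Of 11 endothelial genes 5 were higher and none lower. Of 9 target genes 3 were higher, namely *Cdh5* (6.77 against 0.0935 FPKM), *Cldn5* (92.6 against 10.9 FPKM) and *Dll4* (12.2 against 0.438 FPKM). Of 8 endoderm genes 1 was higher and 1 lower. The median differences in JGES were 0.95 for endoderm, 0.38 for endothelial and 0.39 for target genes, beside -0.14 over all genes. In JGE they were -0.17, 0.77 and 0.71, beside -0.05. In JGEO they were 0.39, 1.20 and 0.39, beside 0.04, and in JGESO -0.43, 0.59 and -0.25, beside 0.01. Of the 12 endoderm genes 0 were higher and 2 lower in JGESO. At days 3 and 5 of JGES the endoderm median was -0.57 and -0.41, beside -0.09 and -0.18 over all genes. Of 13 other measured *Sox* genes, 1 was higher and 5 were lower with BMP4 in JGES at day 7, with a median of -0.69. The shares over all genes were 10.3% higher and 13.8% lower.

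With SALL4 alone *Sox7* was high and *Sox18* low from day 1, the other way round from JGES. *Sox7* was at 17.1, 13.0, 16.3 and 6.42 FPKM at days 1, 5, 9 and 11 with SALL4-WT, and at 31.2, 16.0, 17.6 and 6.35 FPKM with SALL4-delN12. The 2 forms were furthest apart at day 1, and both libraries of day 11 were the lowest of their series. *Sox18* stayed between 0.0794 and 1.53 FPKM with SALL4-WT and between 0.0337 and 0.279 FPKM with SALL4-delN12, against 18.8 FPKM or more in all JGES libraries from day 1 on. *Cdh5* was at 10.8 and 9.54 FPKM in the day 1 libraries and between 0.898 and 5.05 FPKM later. Macrophage markers at day 1 summed to 80.9 FPKM with SALL4-WT and 156 FPKM with SALL4-delN12. In JGES at day 1 they summed to 5.92 and 3.53 FPKM, without and with BMP4. The SALL4 series has no RNA library of day 0, and the part of starting cells in its contrast with JGES was not tested.

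*Sox17* separated the 2 forms of SALL4. With SALL4-WT it was at 0.0238, 0, 0 and 0.224 FPKM at days 1, 5, 9 and 11. With SALL4-delN12 it was at 0, 0.162, 4.88 and 16.2 FPKM. The day 11 level of SALL4-delN12 exceeded that of the BMP4+ JGES library of day 7. Of the 3 genes none was past 2-fold between the forms at day 1, where 9.81% of genes were, and none at day 5, where 9.86% were. At days 9 and 11 *Sox17* alone was, with differences of 2.56 and 3.81, where 11.8% and 13.1% of genes were (6.55% higher and 6.58% lower at day 11). *Sox7* differed by 0.83, 0.28, 0.10 and -0.01 over the 4 days, and *Sox18* by -0.98 at day 11. With a pseudocount of 5 the day 9 value of *Sox17* was 0.98. With pseudocounts of 0.1 and 5 the day 11 values were 5.65 and 2.02 for *Sox17* and -2.11 and -0.31 for *Sox18*. *Sall4* RNA, delivered or endogenous, was at 549, 491, 518 and 290 FPKM over the 4 days with SALL4-WT. With SALL4-delN12 it was higher on each day, at 809, 623, 971 and 428 FPKM, and its part in the SOXF differences was not tested.

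Endoderm genes differed alongside *Sox17* in these libraries. The 6 PrE markers summed to 15.6, 13.6, 17.1 and 22.9 FPKM with SALL4-WT and to 14.9, 31.7, 90.3 and 295 FPKM with SALL4-delN12. At day 11, 8 of 11 measured endoderm genes were past 2-fold higher with SALL4-delN12 and none lower, with a median difference of 2.2 beside 0.01 over all genes. Of all genes 6.55% were higher and 6.58% lower. *Gata4* was at 29.3 against 1.51 FPKM, *Lama1* at 50.2 against 3.38 FPKM and *Cited1* at 140 against 3.79 FPKM. Of 7 measured endothelial genes 2 were higher, *Flt1* and *Tek*, and 1, *Kdr*, was lower. Of 8 measured target genes 3 were higher, among them *Lama1* and *Foxa2*, which are also known from endoderm, and 2 were lower, namely *Notch1* (1.34 against 4.51 FPKM) and *Vcam1*. Markers of other cells differed as well. Macrophage markers, 5 of 6 at 1 FPKM or more, summed to 156 to 377 FPKM in the SALL4-delN12 libraries, and, with 4 or 5 of 6 at that level, to 24.5 to 80.9 FPKM in the SALL4-WT libraries. Red blood cell genes summed to 6.44 to 333 FPKM against 0.203 to 52.6 FPKM. Endothelial markers stayed at 4.62 to 15.6 FPKM in all 8 libraries, with *Emcn* at most at 0.130 FPKM in any of them. The part of these cells in the SOXF values was not tested.

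Fits with limma, added after the data were seen, took the 4 pairs of libraries of a kind as replicates, with the day or the factor set as a block. None of the 3 genes passed an adjusted p of 0.05 in any of them. Over the 4 factor sets at day 7, the mean BMP4 difference was 1.86 (95% interval 0.75 to 2.97, limma adjusted p = 0.495) for *Sox18* and 1.12 (0.45 to 1.79, limma adjusted p = 0.495) for *Sox7*, both higher in 4 of 4 pairs, and 1.06 (0.26 to 1.87, limma adjusted p = 0.625) for *Sox17*, higher in 3 of 4. That fit called 0 of 17641 genes, where 1151 had an unadjusted p under 0.05. The intervals of these fits are not adjusted for the number of genes. The unadjusted limma p over the factor sets was 0.00510 for *Sox18*, 0.00505 for *Sox7* and 0.0164 for *Sox17*. Over days 1 to 7 of JGES the mean differences were 0.59 for *Sox17*, 0.32 for *Sox7* and 0.23 for *Sox18*, each higher in 2 of 4 pairs, with limma adjusted p of 0.394, 0.534 and 0.693, and 0.569% of genes were called. Over the 4 days of SALL4 alone *Sox17* was at 1.64 (0.00 to 3.27, limma adjusted p = 0.164), *Sox7* at 0.30 (adjusted p = 0.249) and *Sox18* at -0.48 (adjusted p = 0.172) for SALL4-delN12 minus SALL4-WT, and 11.9% of genes were called. *Sox18* was lower with SALL4-delN12 in 4 of 4 pairs. Some of these means rest on a single pair. Without day 11, *Sox17* between the SALL4 forms was at 0.91, and without day 1, *Sox7* was at 0.12. Without day 7, the JGES means were 0.21 for *Sox17*, 0.01 for *Sox7* and 0.00 for *Sox18*. Such a fit asks for a difference that is alike over days or sets, and the first 2 share the JGES libraries of day 7.

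The genes most like each SOXF gene over the 17 libraries of the time course table were named by Pearson's r of log2(FPKM+1), over 12351 genes that reached 5 FPKM in a library. The libraries belong to 4 time courses of the same kind of cell, so r is a description. For *Sox17* these were *Hkdc1* (0.955, but 0.728 as Spearman's rho), *Cldn7*, *Habp2*, *Klb* and *Lama1* (0.936), and *Gata4* stood at 0.935. For *Sox18* they were *Dlx4* (0.987), *Zfp423*, *Greb1*, *Rcor1* and *Dlx4os*. For *Sox7* they were *Tuba4a* (0.931), *Cyb5r4*, *Pmvk*, *Crabp2* and *Mafg*, and *Cdh5* stood at 0.796. Within the 9 JGES libraries the gene most like *Sox7* was *Cdh5* (0.987) and the gene most like *Sox17* was *Lrp2* (0.985), with its endocytic partner *Cubn* at 0.961. Within the 8 SALL4 libraries *Gata4* stood at 0.991 to *Sox17* and *Foxa2* at 0.993. The choice of libraries decided the names: of the 5 genes most like *Sox7* and of those most like *Sox18*, 0 were again among the 5 in the JGES or the SALL4 libraries, and for *Sox17* 1 and 2 were. Among themselves the 3 genes were not alike over the 17 libraries, with 0.22 for *Sox7* and *Sox17*, 0.07 for *Sox17* and *Sox18* and -0.63 for *Sox7* and *Sox18*.

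Over the 8 single-cell groups, with log2(CPM+1) and 9783 genes of at least 10 CPM in a group, the genes most like *Sox17* were *Flt1* (0.976), *Rdh11*, *Cited1*, *Podxl* and *Slc35a3*. The genes most like *Sox18* were *Rap2a* (0.984), *Rapgef5*, *Ppp1r13b*, *Pip4k2a* and *Hapln1*. The genes most like *Sox7* were *2700046A07Rik* (0.975), *Abhd17a*, *Stat5a*, *Map3k11* and *F10*. Between the members r was 0.802 for *Sox7* and *Sox18*, 0.545 for *Sox7* and *Sox17* and 0.108 for *Sox17* and *Sox18*. The 8 groups share 2 libraries, and those without BMP4 were shallower.

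Chromatin was profiled in the SALL4-WT and SALL4-delN12 cultures and in MEFs, not in JGES cells. ATAC-seq marks open chromatin. The start site of *Sox7* was open in all of these libraries. A peak lay within 2 kb of it in 9 of 9 ATAC-seq libraries, with scores of 122 in MEFs, 190, 448, 392 and 275 at days 1, 5, 9 and 11 of SALL4-WT and 292, 216, 396 and 247 on the same days of SALL4-delN12. The score is that of the peak caller MACS, which rises as a peak becomes less likely by chance. MEFs thus had a peak there before any factor was given, and no score of a SALL4 library was lower. H3K27ac peaks lay over the start site with both forms, of score 65.8 and width 1761 bases with SALL4-WT and of score 136 and width 3805 bases with SALL4-delN12. SALL4 itself had a peak of score 79.6 there with SALL4-WT and none within 2 kb with SALL4-delN12. The nearest SALL4 peak with SALL4-delN12 lay at -2692 bases (score 53.0).

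Within 2 kb of the gene start, the outermost annotated start of a gene, most libraries had no peak near the other genes. Near *Sox17*, a peak within 2 kb of the gene start was found in MEFs alone (score 58.0), so in 1 of 9 ATAC-seq and 0 of 4 CUT&Tag libraries. Counting all 8 annotated transcript starts, 6 of 9 ATAC-seq libraries had a peak. Near *Sox18*, 3 of 9 ATAC-seq libraries had a peak within 2 kb (SALL4-WT at days 5 and 9, scores 90.5 and 55.8, and SALL4-delN12 at day 5, score 141) and 0 of 4 CUT&Tag libraries, while within 5 kb all 9 ATAC-seq libraries did. As background, the share of 21911 protein-coding genes with a peak within 2 kb was 66.2% in MEFs. It was 60.0%, 64.4%, 63.7% and 64.0% at days 1, 5, 9 and 11 of SALL4-WT and 57.9%, 59.8%, 61.4% and 61.9% on the same days of SALL4-delN12. For H3K27ac it was 47.5% with SALL4-WT and 56.8% with SALL4-delN12, and for SALL4 binding 51.5% and 38.5%. At day 11 of SALL4-delN12 the RNA library had *Sox17* at 16.2 FPKM. The ATAC-seq library of that day, a separate sample, had no peak within 2 kb of the gene start of *Sox17*. It was among the 6 with a peak within 2 kb of any annotated start. It had peaks within the gene, 1 of them of score 234.

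Around the genes, peaks within 100 kb that lay nearest to a SOXF start were merged into sites, which gave 15 sites at *Sox7*, 12 at *Sox17* and 3 at *Sox18*. At *Sox17*, 7 of the 12 sites had a peak in the SALL4-delN12 library of day 11 and in none of the other 12 peak lists. Over the genome, 2.06% of 188118 merged sites did. No site at *Sox7* or *Sox18* did. That library had 10 peaks at the *Sox17* locus, 7 of them with a score of at least 100, although it had the fewest peaks of all 9 ATAC-seq libraries (78517). The others had 1 to 4 peaks there: 3 in MEFs, 1, 3, 2 and 3 at days 1, 5, 9 and 11 of SALL4-WT and 1, 2 and 4 at days 1, 5 and 9 of SALL4-delN12.

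The 7 sites lay on both sides of the gene and in it. The peak with the highest score, 234, lay over exons of *Sox17* at chr1:4493216-4493834, and a neighbour in the gene at chr1:4493010-4493179 had a score of 54.4. Upstream were the printed sites at chr1:4538360-4538637 (225) and chr1:4537450-4537767 (119) and a site at chr1:4544034-4544152 (65.6). Downstream were the printed site at chr1:4473883-4474091 (101) and a site at chr1:4474591-4474699 (56.2). No H3K27ac peak lay at any *Sox17* site at day 6, and the SALL4 peaks were 1 with each form, at the constant site (score 55.0, SALL4-WT) and at -52772 bases (score 66.4, SALL4-delN12). CUT&Tag was done at day 6, between the ATAC-seq days 5 and 9, when the SALL4-delN12 libraries had 2 and 4 ATAC-seq peaks at the locus. The printed site at -74350 bases, at chr1:4571257-4572151, was open in all 9 ATAC-seq libraries, with its highest score of 543 in MEFs.

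At *Sox7*, 11 of the 15 sites had a CUT&Tag peak, against 2 of 12 at *Sox17* and 1 of 3 at *Sox18*, and 56.1% of merged sites over the genome. The site with the highest score (1271, in MEFs) lay at chr14:63960682-63965210, 19273 bases downstream of the start, and had a peak in all 13 lists. The printed site at -26066 bases (chr14:63916897-63918317), in an intron of *Pinx1*, had no peak in MEFs. It had ATAC-seq peaks in 7 of the 8 SALL4 libraries (all but SALL4-delN12 at day 11), SALL4 peaks with both forms (scores 172 and 224) and an H3K27ac peak with SALL4-delN12 (205) but not with SALL4-WT. Its neighbour at chr14:63921280-63923977 also had no peak in MEFs, with ATAC-seq peaks in 6 SALL4 libraries, SALL4 peaks with both forms (56.9 and 185) and an H3K27ac peak with SALL4-delN12 (148). A site 11692 bases downstream had ATAC-seq peaks with SALL4-delN12 at days 1, 5 and 11 and a SALL4 peak with that form, and no peak with SALL4-WT or in MEFs. Sites with peaks for a single SALL4 form, over all days and assays, were not counted over the genome. Of the 15 sites, 2 had peaks with SALL4-delN12 but none with SALL4-WT or in MEFs, and 2 the reverse. The latter lay at -17859 bases (chr14:63925417-63926212), with ATAC-seq peaks at days 1 and 9, and in an exon of *Sox7* (chr14:63948120-63949142), with ATAC-seq peaks at days 5 and 9, and each had a SALL4 peak with SALL4-WT (scores 78.5 and 111). Over the locus, H3K27ac peaks numbered 2 with SALL4-WT and 6 with SALL4-delN12, in lists of 19841 and 45599 peaks.

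At *Sox18* the printed site at -4013 bases, at chr2:181675323-181675983, had ATAC-seq peaks in MEFs, in all 4 SALL4-WT libraries and in the SALL4-delN12 libraries of days 9 and 11, and a SALL4 peak with SALL4-WT (score 58.8) but not with SALL4-delN12. Its scores were 302 in MEFs, 124, 451, 313 and 321 at days 1, 5, 9 and 11 of SALL4-WT, and 129 and 127 at days 9 and 11 of SALL4-delN12. The SALL4-WT scores of days 5, 9 and 11 were thus above every SALL4-delN12 score. In the RNA libraries of SALL4 alone, which are separate samples, *Sox18* was at most 1.53 FPKM. Each list comes from 1 sample or from pooled replicates, so no peak has a replicate check.

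**Figure D5:**
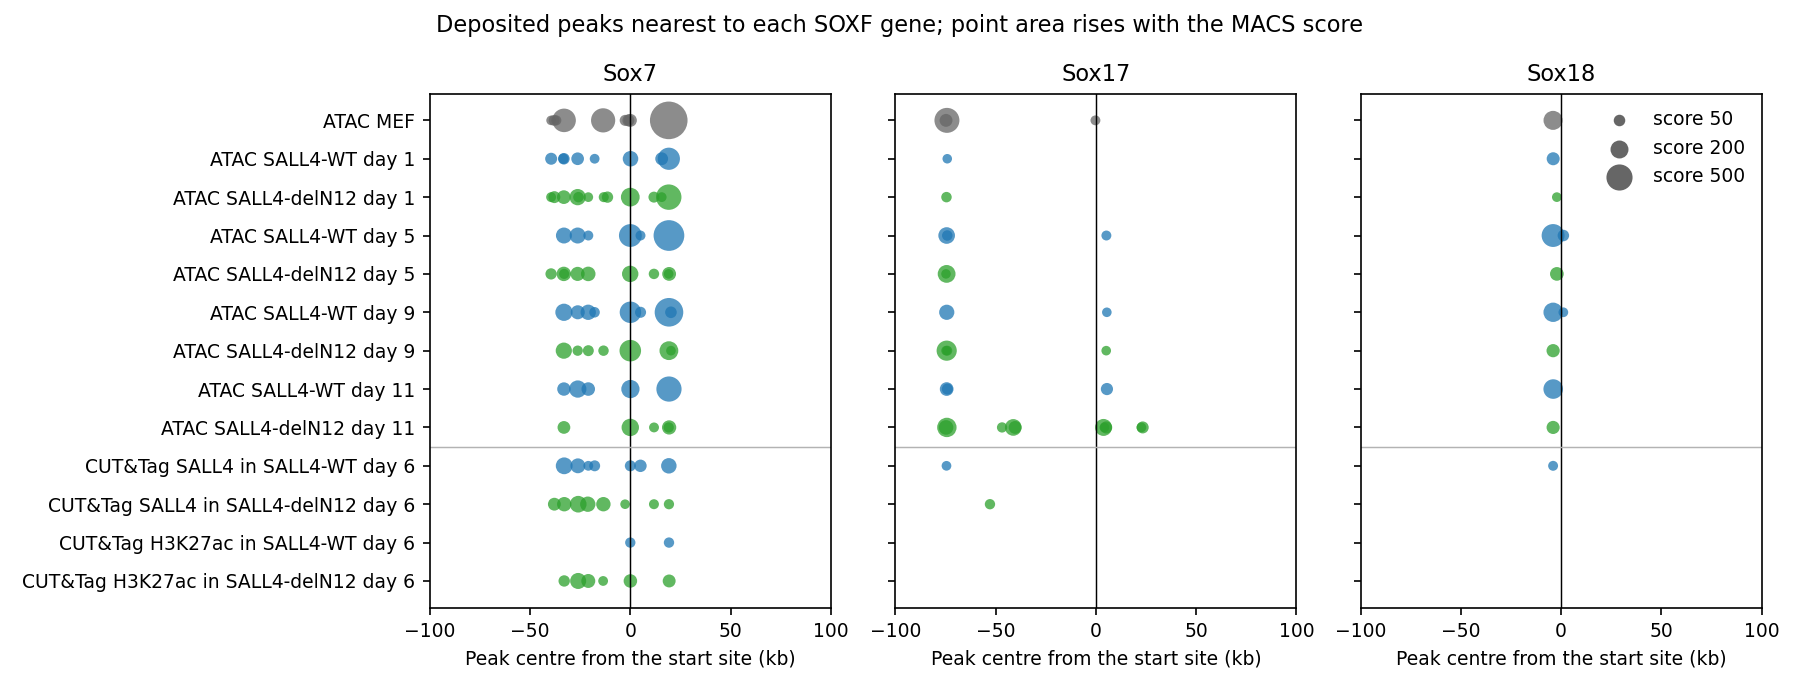
Deposited peaks nearest to each SOXF gene (points) by library (rows) and by distance of the peak centre from the start site (horizontal axis, kb, negative upstream); point area rises with the MACS score, with MEFs in grey, SALL4-WT in blue and SALL4-delN12 in green. Sox7 has peaks at its start in all 9 ATAC-seq rows, and the SALL4-delN12 day 11 row holds 10 peaks at Sox17, 7 of them at sites found in no other row.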

How the data were processed

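The series measured single-cell RNA, bulk RNA, open chromatin (ATAC-seq) and CUT&Tag in reprogramming mouse fibroblasts. For single cells the authors deposited whole counts per gene and cell, from STAR and Scanpy, with the annotation in the column names. The counts were treated as UMIs, although the extraction protocol of these samples names an rRNA depletion kit. The 10749 cell columns of other work were not used. For bulk RNA the authors deposited FPKM values (Trim Galore 0.6.4, HISAT2 2.2.1, StringTie 2.2.1, mm10) in 2 tables, and both hold the JGES day 7 libraries (median ratio 0.975 and 0.978). For chromatin the authors deposited peaks with the MACS 1.4.2 score, which the caller derives from the log10 of the peak's p-value, at a minimum of 50 (Trim Galore, Bowtie2 2.4.5, SAMtools 1.16.1, mm10). CUT&Tag replicates were merged before peaks were called. Versions are from the submitters' processing notes.

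UMI counts were summed by sample and annotated type and given as CPM with exact Poisson intervals. Shares used cells thinned to 4000 UMIs, a depth that 0 cells fell under. No doublet caller was run; leaving out the 6% of cells with most UMIs served as an alternative, and 2 barcodes occurred in both samples. The depth behind FPKM values is unknown. Tables were compared within themselves, with a pseudocount of 1. Fits over 4 pairs of libraries, with the day or factor set as a block, used limma 3.58.1 (trend, Benjamini-Hochberg adjustment) on genes of at least 1 FPKM in a library. Promoters were 2 kb to each side of the GENCODE vM21 gene start, and loci 100 kb. Python 3.11.15 with pandas 2.3.3, scipy 1.17.1 and pysam 0.24.0 was used. The members and gene lists were chosen with earlier results of these data known. Named genes were the members, the listed genes, the 5 genes most like each member, and genes named with a division of cells made after the values were seen.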

Additional observations from a re-analysis of the deposited data

Results flagged for a closer look

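Several BMP4 differences of the SOXF genes had opposite signs between factor sets or days, with 1 library on each side, and whether they differ was not tested. *Sox17* was lower with BMP4 in JGESO at day 7, with -0.29 on the log2(FPKM+1) scale, and higher in JGES at day 7, with 1.73. Within JGES, *Sox17* was at -0.28 at day 5 and 1.73 at day 7. *Sox7* was at -0.19 at day 3 and 1.24 at day 7. *Sox18* was at -0.74 at day 3 and 1.08 at day 5.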

How the results depend on the processing

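*Sox7* in JGES at day 5 went from -0.02 to 0.13 when libraries were scaled by the median ratio, and no difference past 2-fold changed sign. Taken as fold changes and not as log2 values, the 3 SOXF differences in each of 11 comparisons moved by less than 1.5 times with that scaling (33 of 33). Pseudocounts of 0.1 and 5 moved 12 and 11 of 33 by more than that. The *Sox17* difference was 1.12 in JGES at day 7 with a pseudocount of 5, and at day 11 between the SALL4 forms it was 5.65 and 2.02 with pseudocounts of 0.1 and 5, where *Sox18* was at -2.11 and -0.31. In BMP4+ PrECLCs, *Sox17* was at 221 CPM in cells chosen by 3 markers, 271 CPM as a mean per cell and 270 CPM without the 6% of cells with most UMIs. *Sox18* in them was at 6.87, 2.38 and 2.13 CPM in the same order, and 1.84 CPM without cells with 3 markers of another type. In BMP4+ endothelial cells, cells chosen by 3 markers and the mean per cell gave 83.1 and 82.5 CPM for *Sox7*, 47.9 and 42.4 CPM for *Sox17* and 97.4 and 94.8 CPM for *Sox18*. *Sox17* was at 33.4 CPM without cells with markers of another type and 39.5 CPM without the deepest cells, and *Sox18* at 89.0 CPM without cells with markers of another type. In the BMP4- sample, cells chosen by 3 markers gave 75.4 CPM for *Sox17* with PrE markers, and 68.6, 24.7 and 41.5 CPM for *Sox7*, *Sox17* and *Sox18* with endothelial markers. Peak counts near starts depended on window and score. *Sox7* had 1 CUT&Tag library with a promoter peak of score 100 or more, and 4 with a peak within 5 kb. *Sox17* had 2 ATAC-seq libraries within 5 kb, 0 at score 100 and 6 for any transcript start. *Sox18* had 0 within 1 kb, 9 within 5 kb and 1 at score 100, and 1 CUT&Tag library within 5 kb. Within 50 kb the SALL4-WT day 11 library had 1 peak at *Sox17*. Shares of cells left the exact 95% binomial interval of the reported share without thinning or at 2000 UMIs in 43 of 54 values. By replicate number, no paired analysis was possible because each condition has 1 sample. In the fits paired by day or factor set, leaving out 1 pair or changing the pseudocount brought none of the 9 values past an adjusted p of 0.05, and 1 changed sign: *Sox18* in JGES ranged from -0.06 without day 5 to 0.55 without day 3. The alternatives of paired fits, of any transcript start, of JGES and SALL4 libraries on their own and of cells divided by SOXF UMIs were added after the data were seen. Sequencing depth limits low levels: a gene without a UMI in the 142 BMP4- PrECLCs could still be present, and FPKM files give no depth.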
